A study of Rattus norvegicus with 8 samples.

Results

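This report describes 9 genes of the cell cycle engine in rat testis cells: Spdya, the cyclins Ccna1, Ccna2, Ccnb1, Ccnb2, Ccne1 and Ccne2, and the kinases Cdk1 and Cdk2. They were picked by name, with their aged against young values already known, as genes of early meiotic prophase (Spdya), late meiosis (Ccna1) and the mitotic cycle, so those values, and the standard errors, intervals and calls printed beside them, describe the genes and are not tests of them. They are 9 of the 15154 named genes on the array and were read by 10 probes. All 9 were among the 10236 genes that passed the filter on dim probes, and every spot of theirs was well above background on all 8 arrays, so none entered through 1 age group alone. The arrays held RNA of testis cells that a cell sorter had selected with an antibody against CD9, a surface tetraspanin of spermatogonia and of other cells. There were 4 arrays from aged rats of 21 months and 4 from young rats of 4 months, with 1 Cy3-labelled RNA sample of 18 ng per array. Rats of both ages were Sprague Dawley animals with a GFP transgene specific to germ cells, and the promoter that drives it is not given in the sources used here. The labels do not say whether arrays of a group came from separate animals, so the errors and p-values given here cover the scatter among these 8 samples alone, and that scatter may be technical.

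Cyclins are regulatory proteins that switch on cyclin-dependent kinases (CDKs), and some of them are made and destroyed once in each cell cycle. Cyclins E1 and E2 pair mainly with Cdk2 as cells enter DNA synthesis, cyclin A2 pairs with Cdk2 and Cdk1 through synthesis and G2, and cyclins B1 and B2 pair with Cdk1 to drive entry into division. Germ cells of the mouse use the same kinases with other partners in meiosis: Spdya (Speedy A, also called RingoA), which activates Cdk2 without being a cyclin, helps to hold telomeres at the nuclear envelope in early prophase, and Ccna1 (cyclin A1) is made in late spermatocytes and is needed to leave prophase. In a testis sample, a transcript of this family can depend both on division and on which stages of germ cells are present.

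The 250 bases before the start of the genes are shown for the meiotic pair Spdya and Ccna1 and for 3 genes of the mitotic programme, because the first 2 had the largest differences between aged and young arrays among the 9 genes and the other 3 had small ones. Capitals mark 3 motifs, read on both strands: the CHR (TTTGAA or TTCGAA, the element through which the DREAM and MuvB complexes act on late cell cycle genes), the CCAAT box (CCAAT, bound by NF-Y) and the E2F site (TTTCGCGC, TTTGGCGC or TTTCCCGC). Each sequence runs 5′ to 3′ on the strand of its gene and comes from RefSeq, build GRCr8.
Spdya, chr6:29674952-29675201, minus strand: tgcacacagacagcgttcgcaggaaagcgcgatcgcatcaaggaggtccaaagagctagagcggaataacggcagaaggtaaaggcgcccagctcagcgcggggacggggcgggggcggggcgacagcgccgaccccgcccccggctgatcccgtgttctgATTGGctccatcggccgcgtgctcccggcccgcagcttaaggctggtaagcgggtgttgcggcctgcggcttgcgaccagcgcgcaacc
Ccna1, chr2:141393301-141393550, minus strand: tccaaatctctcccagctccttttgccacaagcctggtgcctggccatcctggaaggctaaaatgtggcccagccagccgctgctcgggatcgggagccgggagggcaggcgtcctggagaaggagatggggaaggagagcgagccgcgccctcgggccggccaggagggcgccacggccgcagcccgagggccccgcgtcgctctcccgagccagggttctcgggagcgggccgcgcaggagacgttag
Ccnb1, chr2:33655226-33655475, minus strand: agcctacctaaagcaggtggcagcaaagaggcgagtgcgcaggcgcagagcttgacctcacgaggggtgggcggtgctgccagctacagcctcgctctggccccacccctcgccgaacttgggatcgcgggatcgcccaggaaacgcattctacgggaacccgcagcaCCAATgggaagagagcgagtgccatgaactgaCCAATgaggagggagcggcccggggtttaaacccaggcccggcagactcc
Ccnb2, chr8:79981659-79981908, minus strand: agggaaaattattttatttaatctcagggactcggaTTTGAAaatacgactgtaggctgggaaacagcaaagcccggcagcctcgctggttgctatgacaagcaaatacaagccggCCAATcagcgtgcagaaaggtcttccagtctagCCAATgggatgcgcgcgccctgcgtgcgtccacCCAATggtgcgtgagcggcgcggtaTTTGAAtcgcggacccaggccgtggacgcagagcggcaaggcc
Cdk1, chr20:19265043-19265292, plus strand: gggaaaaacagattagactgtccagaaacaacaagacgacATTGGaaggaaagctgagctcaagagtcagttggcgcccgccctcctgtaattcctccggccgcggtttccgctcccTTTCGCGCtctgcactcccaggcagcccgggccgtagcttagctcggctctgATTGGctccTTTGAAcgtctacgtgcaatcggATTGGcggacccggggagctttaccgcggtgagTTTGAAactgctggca

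The promoter table held 7 of the 9 genes, and Ccna2 and Ccne2 are named only. Cdk1 and Ccnb2 each held 2 CHR matches and 3 CCAAT boxes in this window, and the CHR matches nearest the start lay 16 to 11 bases before it in Cdk1 and 43 to 38 bases before it in Ccnb2. The CCAAT boxes of Ccnb2 stood at 134, 101 and 68 bases before the start, counted to the first letter. Ccnb1 held 2 CCAAT boxes, Spdya and Cdk2 held 1 each, and Cdk1 alone held an E2F match. Ccna1 and Ccne1 held none of the 3 motifs. Over the 33469 promoter entries of that table the CHR letters stood in 17.37%, the CCAAT box in 34.02% and the E2F letters in 1.41%. A further motif, the MYB letters AACGG or AACTG (not capitalised above), stood in 48.98% of them and in Spdya, Ccnb1, Cdk1 and Cdk2. The MYB matches shared no base with a CCAAT box or E2F match, while in Cdk1 the final base of the CHR match nearest the start was also the first base of a MYB match. These matches describe letters, not bound sites.

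Signals are given as log2 of the processed intensity minus the array's 75th percentile, so a value of 0 is a signal at that percentile and a step of 1 is a factor of 2.0 in signal. Values of different genes come from different probes and are not levels to be ranked against each other. The 75th percentile lay between 326 and 523.63 intensity units, and 63.0% to 72.0% of the probes on an array were well above background. Young replicate 1 stood apart from its group: across 10234 genes its r with the other young arrays was 0.962 to 0.973, and it had the lowest young means of the spermatid, stromal and macrophage marker lists. Results are therefore given with and without it. All 8 arrays shared a slide, with aged rats in one of its rows and young rats in the other, and this position and age cannot be told apart. In bulk RNA of sorted cells, fewer cells of a type and less RNA per cell cannot be told apart either. Cd9, the sorting antigen, was well above background on all 8 arrays and averaged −1.46 ± 0.30 on aged and −1.30 ± 0.12 on young arrays (SD, n = 4 each). Ddx4, a germ cell RNA helicase, averaged 0.19 ± 0.38 on aged and 0.41 ± 0.17 on young arrays.

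Of the 9 genes, Spdya was higher on every aged array and Ccna1 lower on every aged array, and the mitotic cyclins Ccna2, Ccnb1 and Ccnb2 and the kinase Cdk1 differed by at most 0.18 between the group means. The E-type cyclins lay higher on aged arrays by 0.34 for Ccne1 and 0.48 for Ccne2. The difference was positive in 7 of the 9 genes, against 63.4% of all genes tested. The limma fit across 10236 genes called 1 of the 9, Spdya, after Benjamini-Hochberg adjustment at a threshold of 0.05, where it called 0.655% of all genes (0.498% of them higher in aged). The aged and young arrays of 3 of the 9 did not overlap, where those of 14.3% of all genes did not. Spdya and Ccne1 were the 2 that lay higher in aged without overlap (10.2% of all genes) and Ccna1 the 1 that lay lower (4.12%). Spdya was called in no fit that left out a single array other than young replicate 1. It was also not called with quantile normalization of the processed signal, spike-in scaling, no scaling or the replicate number as a block. The same held without the filter on dim probes and with unnamed probes tested too. Ccna1 was called with median or spike-in scaling, with normexp under either scaling, with an intensity trend, with array weights and without young replicate 1. Because the genes were chosen on this contrast, nothing is read from these counts.

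**Figure D1:**
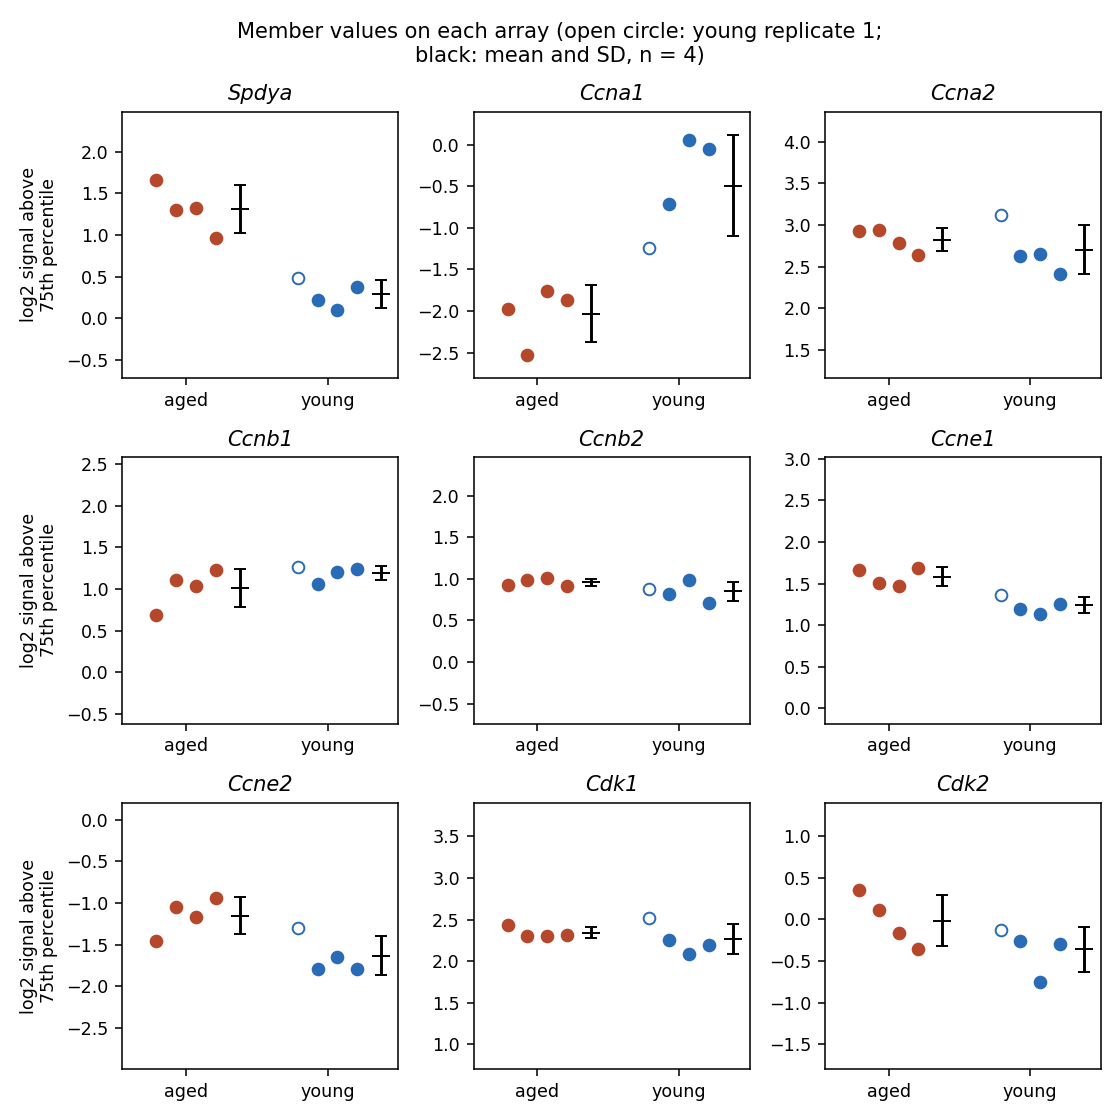
Signals of the 9 genes on each array (log2 above the array's 75th percentile), 4 aged arrays left of 4 young arrays in each panel, with 1 point per array and bars for the mean and SD. Spdya lies between 0.96 and 1.66 on aged arrays and between 0.10 and 0.48 on young arrays, while Ccna1 lies between −2.52 and −1.75 on aged and between −1.25 and 0.05 on young arrays.

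Spdya, the Cdk2 activator of early prophase, was read by the probe A_42_P529780 at 10 spots per array. Its values were 1.66, 1.30, 1.32 and 0.96 on aged replicates 1 to 4, against 0.48, 0.22, 0.10 and 0.38 on young replicates 1 to 4. The lowest aged array stood 0.48 above the highest young array, and aged replicate 4 was the lowest of its group. The mean was 1.31 ± 0.29 on aged and 0.29 ± 0.17 on young arrays (SD, n = 4 each), a difference of 1.01 ± 0.16 (SE, 95% interval 0.65 to 1.38) or 2.02-fold. That difference was larger than 99.7% of those of all genes tested. The groups were apart in the unscaled processed signal as well, at 885 to 1047 units on aged against 456 to 538 units on young arrays. The 10 spots of an array had a median SD of 0.05, which covers the spots alone and not the spread between arrays. Without young replicate 1 the difference was 1.08.

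Ccna1, the cyclin of late meiotic prophase, was read by the probe A_64_P001725 at 2 spots per array. Its values were −1.98, −2.52, −1.75 and −1.86 on aged replicates 1 to 4, against −1.25, −0.72, 0.05 and −0.05 on young replicates 1 to 4. The groups did not overlap, with young replicate 1 nearest to the aged arrays and aged replicate 2 the lowest of all. The mean was −2.03 ± 0.34 on aged and −0.49 ± 0.61 on young arrays (SD, n = 4 each), a difference of −1.54 ± 0.30 (SE, 95% interval −2.21 to −0.87), which is 2.91-fold lower on aged arrays. In unscaled processed signal the aged arrays read 83.9, 62.7, 118 and 144 units and the young arrays 137, 245, 522 and 395 units, so before scaling aged replicate 4 was above young replicate 1. Without young replicate 1 the difference was −1.79, and with a normexp background correction it was −1.15 or −1.16 depending on the scaling. The 2 spots of an array had a median SD of 0.09.

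The cyclins of the S and G2 phases and of division showed no such distance. Ccna2, cyclin A2, read 2.93, 2.94, 2.78 and 2.64 on aged against 3.12, 2.62, 2.65 and 2.41 on young arrays, and the groups overlapped, since young replicate 1 was the highest of all 8. The difference was 0.12 ± 0.16 (SE, 95% interval −0.24 to 0.48), and 0.26 without young replicate 1. A further probe of Ccna2, with 1 spot per array, averaged 2.39 ± 0.09 on aged and 2.30 ± 0.17 on young arrays (SD, n = 4 each), a difference in the same direction. The 2 spots of the first probe on young replicate 4 disagreed, at 1710 and 2783 units.

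Ccnb1, cyclin B1, read 0.68, 1.10, 1.04 and 1.23 on aged against 1.26, 1.06, 1.21 and 1.24 on young arrays. The groups overlapped, and the lowest value came from aged replicate 1, whose 2 spots read 645 and 438 units. The difference was −0.18 ± 0.13 (SE, 95% interval −0.48 to 0.12), −0.07 without aged replicate 1 and −0.16 without young replicate 1. Ccnb2, cyclin B2, read 0.93, 0.99, 1.01 and 0.91 on aged against 0.88, 0.82, 0.99 and 0.72 on young arrays, which overlapped, with the lowest value on young replicate 4. Its difference was 0.11 ± 0.10 (SE, 95% interval −0.12 to 0.33), and 0.12 without young replicate 1. These intervals hold differences in either direction and do not show that the B cyclins were equal at both ages.

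Ccne1, cyclin E1, read 1.67, 1.51, 1.47 and 1.69 on aged against 1.37, 1.20, 1.14 and 1.26 on young arrays. Every aged array was above every young array, by 0.10 at the closest. The difference was 0.34 ± 0.11 (SE, 95% interval 0.10 to 0.58), and its 2 spots per array were the tightest of the 9 genes, with a median SD of 0.01. Ccne2, cyclin E2, read −1.45, −1.04, −1.17 and −0.94 on aged against −1.30, −1.79, −1.65 and −1.79 on young arrays. Here aged replicate 1 lay below young replicate 1, and the other 3 aged arrays lay above all young arrays. The difference was 0.48 ± 0.16 (SE, 95% interval 0.13 to 0.83), and the 2 spots of aged replicate 3 read 217 and 144 units. Without young replicate 1 the differences were 0.39 for Ccne1 and 0.59 for Ccne2, and with normexp that of Ccne2 was 0.305 with the 75th percentile and 0.332 with quantile normalization.

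Cdk1, the mitotic kinase, was read at 10 spots per array with 2.44, 2.31, 2.31 and 2.31 on aged against 2.52, 2.25, 2.09 and 2.20 on young arrays. The groups overlapped because young replicate 1 was the highest of all, and the difference was 0.08 ± 0.12 (SE, 95% interval −0.19 to 0.34), or 0.16 without young replicate 1. Cdk2, the kinase shared by the E cyclins, cyclin A2 and Spdya, was also read at 10 spots, with 0.35, 0.11, −0.17 and −0.35 on aged against −0.13, −0.26, −0.75 and −0.29 on young arrays. These overlapped between −0.35 and −0.13, and the difference was 0.34 ± 0.19 (SE, 95% interval −0.08 to 0.77), or 0.42 without young replicate 1. Of the 10 Cdk2 spots, 1 to 3 were left out as outliers on each array but aged replicate 1 and young replicate 4. The r of Cdk2 with Spdya was 0.80 over the 8 arrays and 0.88 after the group means were subtracted, for values that share 1 slide, 1 scan and the subtracted percentile. In unscaled log2 signals these were 0.87 and 0.21. In the fit that left out young replicate 1, 4 of the 9 genes were called (Spdya, Ccna1, Ccne1 and Ccne2), where 36.9% of all genes were.

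**Figure D2:**
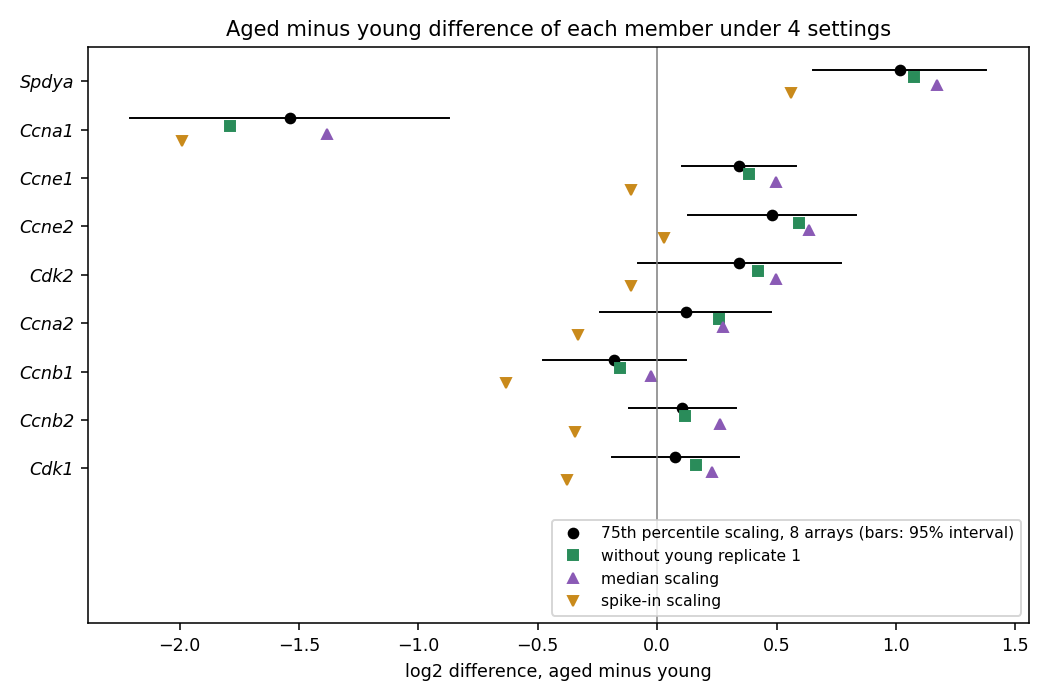
Differences in log2 signal (x axis, aged minus young) of the 9 genes (rows), with the 95% interval of the limma fit as a bar for the 75th percentile scaling and further points without young replicate 1, with median scaling and with spike-in scaling. Spdya stays above 0 and Ccna1 below 0 in all 4, while Ccne1, Cdk2, Ccna2, Ccnb2 and Cdk1 lie above 0 in the first 3 and below 0 with spike-in scaling.

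The scale to which the arrays are set moved all 9 genes together. The median of all genes was 0.11 with the 75th percentile, 0.26 with median scaling and −0.35 with scaling to 4 spike-in RNA probes, an alternative added after the data had been seen. Relative to that median, Spdya differed by 0.91 and Ccna1 by −1.64 under each of these 3 scalings. Ccne2 differed by 0.38, Ccne1 and Cdk2 by 0.24 and Ccnb1 by −0.28 in the same terms, and Ccna2 and Cdk1 by 0.02 and −0.03. Each of the 3 subtracts 1 constant per array, so these relative values agree by arithmetic and are no check. For Spdya and Ccna1 they were 0.82 and −1.21 with normexp and quantile normalization, and 0.88 and −1.89 with array weights. With spike-in scaling itself, the difference was 0.56 for Spdya and −1.99 for Ccna1, and it was below 0 for Ccne1 (−0.11) and Cdk2 (−0.11). Over the 20 alternatives tried for each gene, Spdya and Ccne2 were above 0 in 20 and Ccna1 and Ccnb1 below 0 in 20. The 20 include settings that left these differences unchanged, such as the replicate block.

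Differences between probes on the same array do not depend on a scaling that subtracts a constant per array, though quantile normalization can change them. They were used only to see how they shifted between arrays. Spdya minus Ccna1 was 3.64, 3.82, 3.07 and 2.82 on aged against 1.73, 0.94, 0.05 and 0.43 on young arrays. The lowest aged array exceeded the highest young one, and the shift between group means was 2.55, within 2.11 and 2.87 under every one of 9 alternatives. Spdya minus Cdk1 averaged −1.03 ± 0.24 on aged and −1.97 ± 0.10 on young arrays (SD, n = 4 each), and Ccna1 minus Cdk1 averaged −4.37 ± 0.34 and −2.76 ± 0.78, so each meiotic gene shifted against the mitotic kinase, in opposite directions. Spdya also shifted against its own kinase, with Spdya minus Cdk2 at 1.32 ± 0.12 on aged and 0.65 ± 0.15 on young arrays. Ccna1 shifted against its sister cyclin, with Ccna2 minus Ccna1 at 4.85 ± 0.45 on aged and 3.19 ± 0.87 on young arrays. Between an E and a B cyclin, Ccne1 minus Ccnb1 was 0.57 ± 0.27 on aged and 0.05 ± 0.09 on young arrays. In all 8 pairs examined the aged and young arrays did not overlap, which the choice of Spdya and Ccna1 largely sets.

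**Figure D3:**
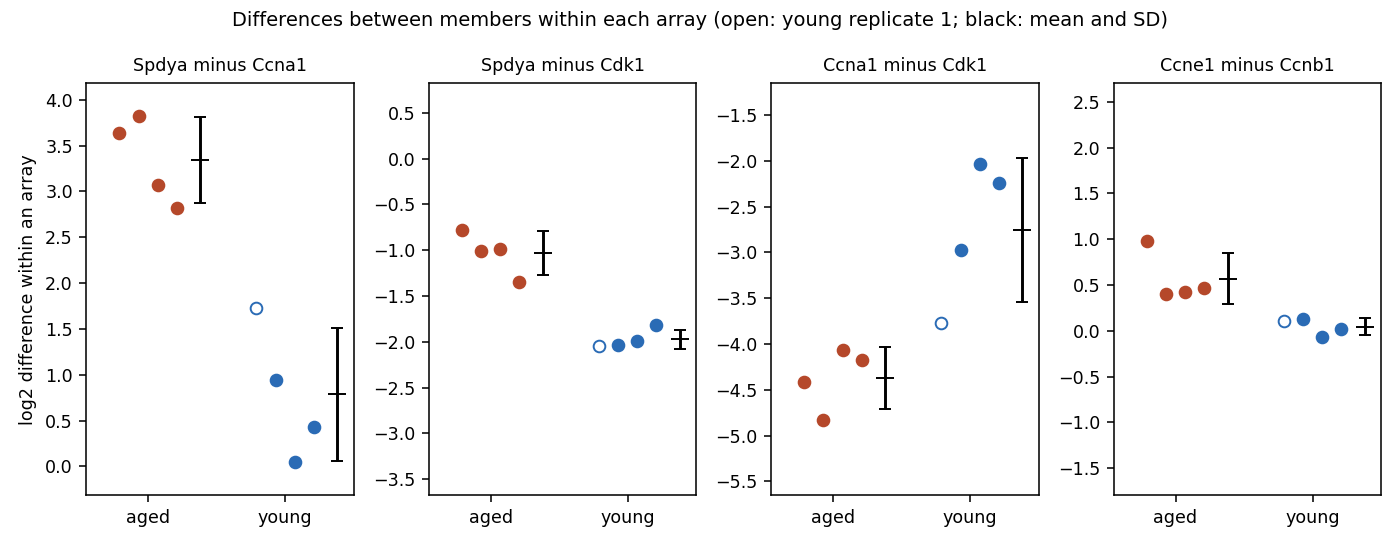
Differences in log2 signal between probes of a pair of genes on the same array (y axis), with aged arrays left of young arrays and 1 point per array. Spdya minus Ccna1 runs from 2.82 to 3.82 on aged arrays and from 0.05 to 1.73 on young arrays.

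Markers of germ cell stages moved beside these genes, and their part in the results was not tested. All 17 measured markers of early meiotic prophase had a positive difference (63.4% of all genes) and 7 of them were called higher (0.498% of all genes), or 16 when young replicate 1 was left out (22.3% of all genes). The called genes include Sycp3, a protein of the chromosome axis, which rose by 1.19 ± 0.20 (SE, adjusted p = 0.0465). The mean of that list was 0.21 to 0.61 on aged against −0.58 to −0.21 on young arrays after each gene was centred, and its r with Spdya over the 8 arrays was 0.99. All 13 measured spermatid markers had a negative difference and 0 were called in the limma fit across all genes, in which 3217 genes had an unadjusted p under 0.05. All 13 were called lower once young replicate 1 was left out, where 14.6% of all genes were. The spermatid mean was −1.23 to −0.08 on aged against −0.53 to 1.08 on young arrays, and its r with Ccna1 was 0.94. Of 8 markers of late spermatocytes 5 were negative, including Pgk2, the testis phosphoglycerate kinase, at −1.02 ± 0.43 (adjusted p = 0.140), with a list mean of −0.79 to 0.02 on aged against −0.25 to 0.51 on young arrays and an r with Ccna1 of 0.87. Points of these correlations share 1 slide and 1 scan, and both sides share the age groups and the subtracted percentile.

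**Figure D4:**
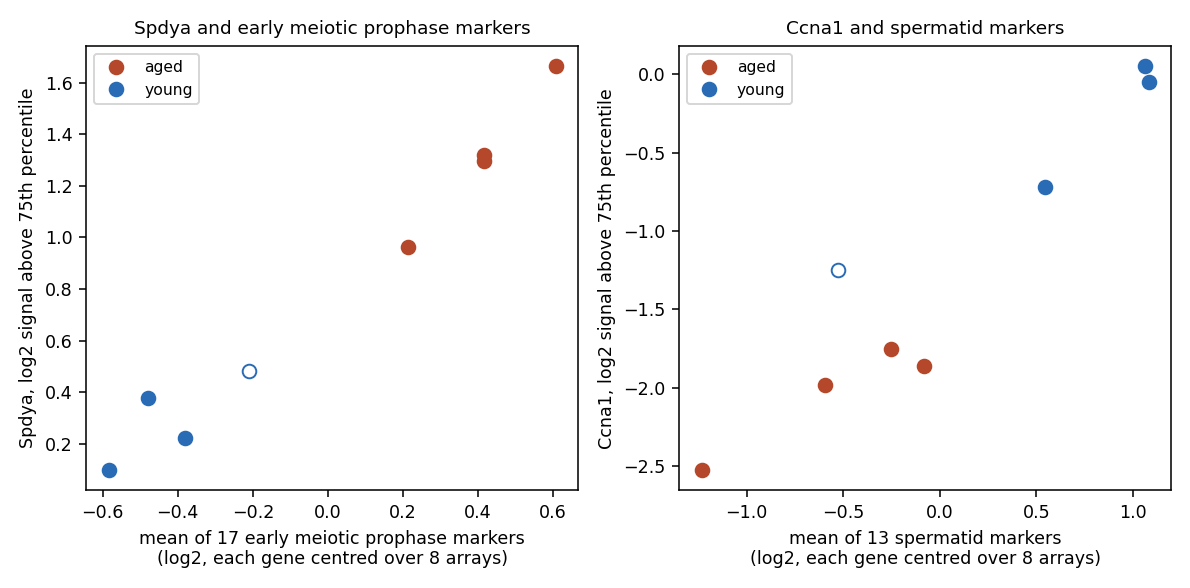
Signals of Spdya and Ccna1 (y axes, log2 above the 75th percentile) against the mean of the centred signals of early meiotic prophase markers and of spermatid markers (x axes, log2), with 1 point per array and aged and young arrays in separate colours. Spdya follows the prophase markers (r = 0.99) and Ccna1 the spermatid markers (r = 0.94) over the 8 arrays.

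Somatic markers moved as well. All 7 measured myoid and stromal markers were negative, with a list mean of −1.37 to −0.26 on aged against −0.59 to 1.17 on young arrays, and its r with Ccna1 was 0.93. Young replicate 1 gave the −0.59, and the other young arrays read 1.05 to 1.17. Of these markers 0 were called with all 8 arrays. All 7 were called lower without young replicate 1, where 14.6% of all genes were. All 6 macrophage markers were negative, with a list mean of −1.32 to 0.30 on aged against −0.35 to 0.94 on young arrays. Of the 6, 0 were called with all 8 arrays and 3 were called lower without young replicate 1. Of 8 Sertoli cell markers on the array, 3 were tested. Rhox5, a homeobox gene of Sertoli cells, rose by 0.82 ± 0.13 (SE, adjusted p = 0.0465). Inha differed by 0.59 ± 0.22 (adjusted p = 0.115) and Clu by 0.23 ± 0.40 (adjusted p = 0.716). Without young replicate 1, Rhox5 alone of the 3 was called, where 22.3% of all genes were called higher, and Clu differed by −0.13. Of the marker lists, Lhcgr (Leydig cells), Lum (stroma) and Tek (endothelium) were not well above background on any array, but other genes of the same lists were above it on all 8, among them the Leydig genes Insl3, Cyp17a1 and Hsd3b1 and the endothelial genes Pecam1, Cdh5 and Kdr. The mean of 4 Leydig markers was −0.89 to 0.51 on aged against −0.87 to 0.64 on young arrays. The mean of 3 endothelial markers was −0.33 to −0.02 on aged against 0.07 to 0.39 on young arrays, without overlap, and its r with Ccna1 was 0.90. Of the 3, 2 were negative and 0 were called, and the groups overlapped in each. Without young replicate 1, 1 endothelial marker was called lower and 0 of the 4 Leydig markers were called. Kdr differed by −1.02 ± 0.32, Pecam1 by −0.11 ± 0.12 and Cdh5 by 0.10 ± 0.17 (SE). Undifferentiated spermatogonial markers, 10 measured with 8 of them negative, had list means of −0.24 to −0.05 on aged against 0.01 to 0.24 on young arrays. Of the 10, 0 were called, and the groups did not overlap in 1 (14.3% of all genes). Their differences ran from −0.89 to 0.13, with a median of −0.19. Young replicate 1 gave the 0.24, and without it the median was −0.10 and 1 marker was called lower.

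The genes that followed each of the 3 main patterns most closely were named by their r over the 8 arrays among 10234 genes, all sharing the slide, the scan and the subtracted percentile. Closest to Spdya were C5h1orf174 (r = 0.997), Upf3a (0.996), a factor of nonsense-mediated decay, Aff4 (0.989), a scaffold of transcription elongation, Tex12 (0.986), a protein of the central element of the synaptonemal complex in the mouse, and Narf (0.986). Closest to Ccna1 were Acr (r = 0.997), the sperm protease acrosin, C3h11orf91 (0.992), Tekt4 (0.992), a tektin of sperm flagella, Zmynd15 (0.991), a spermatid repressor in the mouse, and Cimap1c (0.990). With the 2 arrays farthest from the median of the named gene left out, r for Spdya was 0.971 to 0.999 and for Ccna1 0.972 to 0.997. Closest to Ccnb1 were Slc35b4 (r = 0.984), Smarcd3 (0.948), Foxm1 (0.944), the transcription factor of G2 genes, Brd3 (0.932) and Or8b1d (0.931). Without aged replicates 1 and 3 those were 0.979 for Slc35b4, 0.850 for Smarcd3, 0.671 for Foxm1, 0.636 for Brd3 and 0.218 for Or8b1d, so for the last 3 the likeness to Ccnb1 rested largely on those arrays. Among the 9 genes, Spdya and Ccna1 had an r of −0.87 over the 8 arrays and of −0.32 after the group means were subtracted. In unscaled log2 signals these were −0.67 and 0.84, so the sign within groups turned with the scaling. Ccna2 and Cdk1 had an r of 0.79 and 0.77, and of 0.70 and 0.69 in unscaled signals.

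The rest of the engine was read through 8 lists of other genes, 132 in all, of which 100 were tested. One gene, or 1% of those tested, was called, against 0.655% of all genes, and the groups did not overlap in 7% of them, against 14.3%. The median difference was 0.18 beside 0.11 for all genes, and 78 of the 100 were positive. Leaving out young replicate 1 gave 28 higher and 4 lower calls, where 22.3% and 14.6% of all genes were called. By list those calls were 4 higher and 1 lower of 16 other cyclins, 1 and 1 of 13 other CDKs, 4 and 0 of 5 activators, and 3 and 1 of 10 inhibitors. They were 10 and 0 of 21 turnover genes, 3 and 0 of 15 transcription genes, 3 and 0 of 16 mitotic genes, and 0 and 1 of 4 telomere partners.

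The called gene was Bub1, a kinase of the spindle checkpoint, at 3.94, 3.86, 3.84 and 3.76 on aged against 3.44, 3.08, 3.11 and 3.20 on young arrays. All aged arrays lay above all young arrays, and Bub1 rose by 0.64 ± 0.11 (SE, adjusted p = 0.0465). It belonged to the list of mitotic kinases and proliferation genes, whose median over 16 genes was 0.10, near that of all genes. Bub1 was not called with the mean of a gene's probes, or in any fit that left out 1 array other than young replicate 1. It was also not called with quantile normalization of the processed signal, spike-in scaling, no scaling or the replicate number as a block. The same held without the filter on dim probes and with unnamed probes tested too.

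Of the other cyclins, 0 of 16 were called, with a median of 0.18. The D cyclin Ccnd2, which starts the cycle through Cdk4 and Cdk6, averaged −1.95 ± 0.44 on aged and −1.16 ± 0.20 on young arrays (SD, n = 4 each), a difference of −0.79 ± 0.21 (SE, adjusted p = 0.0705), and the groups did not overlap. Ccnl1, a cyclin of transcription and splicing, differed by 0.54 ± 0.18 (adjusted p = 0.0958). Of the other CDKs, 0 of 13 were called, with a median of 0.07, and Cdk10 had the smallest p among them, at 2.11 to 2.34 on aged against 1.55 to 1.89 on young arrays (difference 0.43 ± 0.12, adjusted p = 0.0687), followed by Cdk11b at 0.30 ± 0.14 (adjusted p = 0.179).

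Activators and cofactors of CDKs, 5 genes with a median of 0.33, held 0 called genes. Mnat1, the assembly factor of the CDK-activating kinase, differed by 0.42 ± 0.14 (adjusted p = 0.0964), and Cks1b, a small CDK subunit, by 0.33 ± 0.13 (adjusted p = 0.120). The inhibitors and inhibitory kinases, 10 genes with a median of 0.22, also held 0 called genes, and their members pointed in different directions. Cdkn2b, the p15 inhibitor of Cdk4 and Cdk6, read −2.39, −2.22, −2.21 and −2.28 on aged against −2.65, −2.82, −2.68 and −2.74 on young arrays, without overlap (difference 0.45 ± 0.10, adjusted p = 0.0561). Cdkn2c, the p18 inhibitor of the same kinases, read −3.58, −4.54, −3.84 and −3.39 on aged against −4.01, −2.58, −2.79 and −2.47 on young arrays, where young replicate 1 fell among the aged arrays (difference −0.88 ± 0.36, adjusted p = 0.139).

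The genes of cyclin turnover had a median of 0.23 over 21 genes, with 0 called. That list includes subunits and activators of the anaphase-promoting complex and of SCF ligases, besides other regulators. Cdc16 and Anapc1, both subunits of the anaphase-promoting complex, differed by 0.37 ± 0.13 (adjusted p = 0.0974) and 0.32 ± 0.13 (adjusted p = 0.123). The cell cycle transcription factors had a median of 0.09 over 15 genes and 0 called, with E2f3 at 0.40 ± 0.16 (adjusted p = 0.124) and Lin54, the MuvB subunit that binds the CHR, at 0.23 ± 0.11 (adjusted p = 0.192). Of the proteins that join telomeres to the nuclear envelope with Spdya and Cdk2 in the mouse, 4 of the 8 listed were tested and 0 called. Terb2, a telomere adaptor, differed by 0.57 ± 0.20 (adjusted p = 0.108), and Sun1, the inner nuclear membrane protein, by −0.68 ± 0.25 (adjusted p = 0.110). Across all 10236 genes, limma gave 3217 with an unadjusted p under 0.05.

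**Figure D5:**
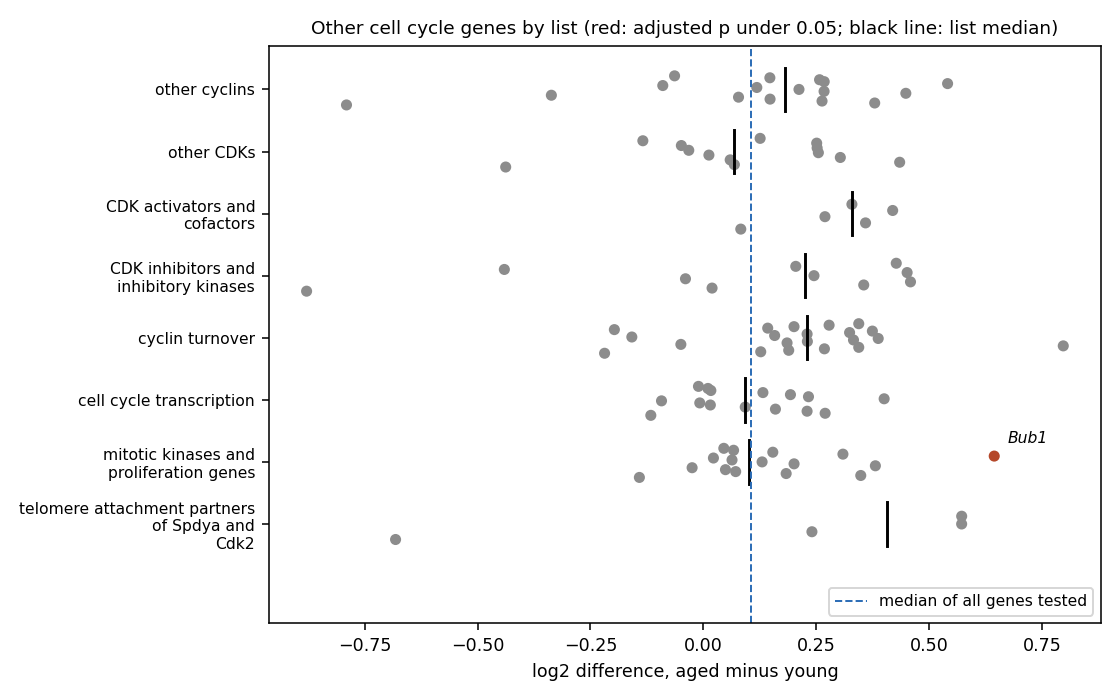
Differences in log2 signal (x axis, aged minus young) of 100 other cell cycle genes in 8 lists (rows), with 1 point per gene, a black line at the median of each list and a dashed line at the median of all genes tested. The list medians lie between 0.07 and 0.41, and 1 gene, Bub1, is called.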

How the data were processed

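The deposited scanner output holds a processed intensity per spot from which, per the file headers, Agilent Feature Extraction 10.7.3.1 had subtracted background (the submitters' processing notes give version 12.5). Per the file headers the probes were designed on rn4. The authors' deposited table holds log2 values of 30505 probes whose row medians are 0 (within 5e-07), with column medians of −0.019, 0.051, 0.066 and −0.0029 on aged and 0.093, −0.074, −0.14 and −0.057 on young replicates 1 to 4. Over 7563 bright probes its differences from aged replicate 1 matched the scanner values scaled here within 0.01, with a slope of 1, so its scale, direction, centring and scaling were settled.

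Each array held 62976 spots, 58717 of them not controls, for 30367 probes. Control and outlier spots were left out, spots of a probe averaged on the log2 scale, and the array's 75th percentile over probes subtracted. Probes were named through the RefSeq gene table of GRCr8 by accession (17998 probes, 15154 genes). The filter on dim probes asked for a share of 0.5 or more of a probe's spots well above background, on all arrays of 1 age, with 2 or more values per age (11950 probes passed). The probe with the highest mean stood for a gene. The number of arrays limits the precision. The comparison used limma 3.58.1 (a two-sided test from lmFit with eBayes, at 9.15 degrees of freedom after moderation) under R 4.3.3, with jsonlite 2.0.0 and version 1.17.8 of data.table, after a check on simulated data, and adjusted p-values (Benjamini-Hochberg) run over all genes tested.

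The genes, lists and motifs were chosen with earlier results of these data known. Named are the 9 genes, the called genes of each list of other cell cycle genes or the 2 with the smallest p, the 5 genes most like Spdya, Ccna1 and Ccnb1, marker genes below background on all arrays, and Cd9, Ddx4, Sycp3 and Pgk2. Rhox5, Inha, Clu and the Leydig and endothelial genes above background were named with their values in view. Alternatives covered scaling, background correction, filters, the variance model, array weights, a replicate block and leaving out each array. No mean spot signal was used, and normexp (offset 50) ran on median spot and background signals.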

Additional observations from a re-analysis of the deposited data

Results flagged for a closer look

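Over 36 sets of 4 arrays (the 10 probes and the 8 within-array differences in each age group), 2 held an array far from the others, and chance does so in about 1 of 20. For Cdk1, aged replicate 1 read 2.44 and the other 3 aged arrays 2.31, so the gap from the nearest array was 0.97 of the group's range, above Dixon's critical value for 4 arrays. The gap is a small one in signal, since the whole aged range of Cdk1 was 0.13. For Ccne1 minus Ccnb1, aged replicate 1 read 0.98 and the other aged arrays 0.41 to 0.46, a gap of 0.90 of the range. On that array the 2 spots of Ccnb1 read 645 and 438 units.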

How the results depend on the processing

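The direction of Spdya, Ccna1, Ccnb1 and Ccne2 was kept in all 20 alternatives. Some of these could not change it: no filter on dim probes, the mean of a gene's probes and the replicate block left their differences as they were. The sign turned in 2 of 20 for Ccna2 and for Ccnb2, in 3 for Cdk1, and in 1 for Ccne1 and for Cdk2. Only Spdya was called in the reported fit, so a change of sign in a called value could be seen in that gene alone. The 8 within-array differences moved by less than the spread between arrays in each of 9 alternatives, which did not include quantile normalization. With spike-in scaling the differences were 0.56 for Spdya, −0.33 for Ccna2, −0.63 for Ccnb1, −0.35 for Ccnb2, −0.11 for Ccne1, 0.0299 for Ccne2, −0.38 for Cdk1 and −0.11 for Cdk2, a common shift by the construction of the scaling. Quantile normalization gave 0.0181 for Ccnb2, 0.22 for Ccne1 and −0.0704 for Cdk1, median scaling gave 0.26, 0.50 and 0.23, and normexp with quantile normalization gave −0.0281 for Ccnb2 and 0.21 for Ccne1. Leaving out 1 array gave 0.90 to 1.13 for Spdya and −1.79 to −1.36 for Ccna1.

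The number of genes called, 67 in the reported fit, depended strongly on the setting, and the cause was not tested. It was 27 with quantile normalization, 1330 with median scaling, 162 with normexp and quantile, 633 with normexp and the 75th percentile, 427 with an intensity trend, 4530 with array weights, 1674 at an adjusted p under 0.10 and 958 with spike-in scaling. It was 0 with no scaling, with no filter on dim probes and with unnamed probes tested too, where limma gave 1389, 3339 and 4929 features at an unadjusted p under 0.05. The share of calls higher in aged was 76.1%, but 57.7% with normexp and the 75th percentile, 88.9% with quantile normalization, 56.5% at the threshold of 0.10, 65.1% with an intensity trend, 63.1% with array weights and 0.626% with spike-in scaling. Leaving out 1 array gave 0 to 3776 calls: 3776 without young replicate 1, 1 without young replicate 2 and 0 without each other array, and in limma's fits with 0 calls the unadjusted p was under 0.05 for 1951 to 3009 genes. Spdya was called in no fit that left out an array other than young replicate 1.

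Of the 100 other cell cycle genes, 1 was called in the reported fit. The count was 7 with median scaling, 2 with normexp and the 75th percentile, 39 with array weights, 7 at an adjusted p under 0.10 and 2 with spike-in scaling. It was 0 with quantile normalization, no scaling, no filter, the mean of a gene's probes and unnamed probes tested too, and 0 to 32 when 1 array was left out, with 32 without young replicate 1.

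With the replicate number as a block, 0 genes and 0 of the 100 were called, and limma gave 3231 genes at an unadjusted p under 0.05. Arrays with the same number correlated in their deviations from the group means at −0.26, −0.12, 0.44 and 0.35. Arrays with different numbers did so at −0.66 to 0.69. These values cannot decide whether the numbers pair the arrays, since the 4 deviations of a group sum to 0 and are not independent. All spots of the 9 genes were well above background, but the background correction moved the dimmer ones: with normexp Ccna1 was −1.16 or −1.15 and Ccne2 0.305 or 0.332. With 4 arrays per group, 95% intervals of Ccna2, Ccnb1, Ccnb2, Cdk1 and Cdk2 include 0.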
